A study of Homo sapiens with 3 samples.

Results

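The 9 genes described here make and load HLA class I, the peptide receptor by which nucleated cells show fragments of their own proteins to CD8 T cells. They were taken by gene name, by a rule that uses no measured value, with earlier results of these data known. The set holds the heavy chain genes HLA-B, HLA-C and HLA-E, the light chain gene B2M, the transporter genes TAP1 and TAP2, the tapasin gene TAPBP, and the immunoproteasome genes PSMB8 and PSMB9. They are 9 of 19267 protein-coding genes and cover 16 of 47239 transcripts. Ribosome footprints, the stretches of mRNA that ribosomes shield from nuclease, were sequenced in 3 human lung lines: H1299 and A549, both from non-small cell lung cancer, and HBE, a bronchial epithelial line. All were grown under normal conditions in complete DMEM, with no cytokine or drug named in the labels, and each line gave 1 library. A ratio between lines therefore compares 2 libraries, its 95% interval covers counting error only, and no p-value or replicate SD could be given.

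Class I molecules are assembled in the endoplasmic reticulum from a heavy chain and beta-2-microglobulin. Their peptides are cut from cytosolic proteins by the proteasome, pumped across the membrane by the TAP transporter and fitted into the groove with the help of tapasin. In many cells interferon-gamma raises most of these genes together, partly through IRF1 and the transactivator NLRC5, and swaps 3 constitutive catalytic subunits of the proteasome for inducible ones. Loss of class I is a known route by which lung tumours escape T cells.

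Except for B2M, which lies at chr15:45003715-45010343 on the plus strand, all members lie on the short arm of chromosome 6 in the major histocompatibility complex. In build GRCh37, with GENCODE gene models, HLA-E is at chr6:30457286-30461971 (plus strand), HLA-C at chr6:31236526-31239869 (minus strand) and HLA-B at chr6:31321652-31324956 (minus strand), each with 8 exons. TAP2 at chr6:32793192-32806516, PSMB8 at chr6:32808494-32811824 and TAP1 at chr6:32812986-32821481 follow each other on the minus strand, and PSMB9 at chr6:32821969-32827628 runs from the other strand, head to head with TAP1. TAPBP is at chr6:33267471-33281855 on the minus strand. These 5 genes have 12, 6, 11, 6 and 8 exons, in the order named, and B2M has 4.

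The heavy chain genes are near copies of each other, so their footprints are hard to tell apart. The first 60 coding bases of exon 2, which encodes part of the peptide groove, and of exon 4, which encodes the domain that B2M binds, are shown from the reference genome (GRCh37) on the coding strand, with the bases that differ from HLA-B in capitals. The exon 2 stretches lie at chr6:31324675-31324734 for HLA-B, chr6:31239586-31239645 for HLA-C and chr6:30457503-30457562 for HLA-E, and the exon 4 stretches at chr6:31323310-31323369, chr6:31238203-31238262 and chr6:30458914-30458973 in the same gene order.
HLA-B exon 2: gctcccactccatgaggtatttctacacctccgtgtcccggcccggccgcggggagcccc
HLA-C exon 2: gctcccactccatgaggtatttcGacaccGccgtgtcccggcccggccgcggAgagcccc
HLA-E exon 2: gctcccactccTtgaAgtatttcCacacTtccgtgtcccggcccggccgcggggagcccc
HLA-B exon 4: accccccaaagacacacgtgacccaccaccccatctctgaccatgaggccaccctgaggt
HLA-C exon 4: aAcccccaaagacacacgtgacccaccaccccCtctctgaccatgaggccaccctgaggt
HLA-E exon 4: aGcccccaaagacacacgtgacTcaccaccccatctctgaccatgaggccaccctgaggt
Over the whole of exon 2, HLA-C differed from HLA-B at 17 of 270 bases and HLA-E at 35. In exon 4, HLA-C differed at 18 of 276 bases and HLA-E at 22.

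Cutting the reference coding sequences into windows of 28 bases, close to the length of a footprint, gave the share that another class I gene also holds. Of the 1059 windows of HLA-B, 12.2% stood unchanged in HLA-C and 21.2% in at least 1 other class I gene or pseudogene. With up to 4 mismatches allowed, those shares were 92.2% and 98.3%. HLA-C (1071 windows) shared 25.1% unchanged and 95.5% within 4 mismatches with any other class I gene, and HLA-E (1047 windows) 21.7% and 88.1%. The counts of HLA-B, HLA-C and HLA-E are therefore reported as uncertain between these genes, and are also given pooled. Reads were mapped to reference sequences, and the alleles that each line carries were not analysed here.

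**Figure D1:**
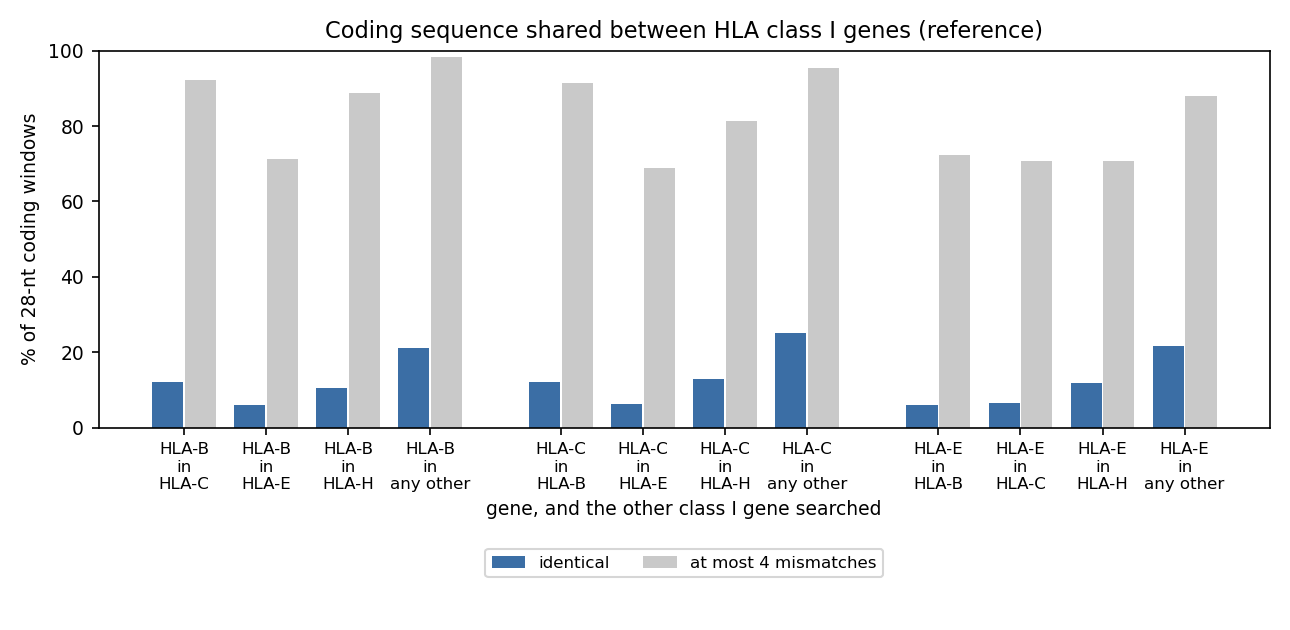
Percentage of 28-base coding windows (y axis) of HLA-B, HLA-C and HLA-E that another class I gene of the reference also holds (x axis), unchanged (blue) or with at most 4 mismatches (grey). For HLA-B, 21.2% of windows are shared unchanged and 98.3% within 4 mismatches with any other class I gene or pseudogene.

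The promoters of the members were searched for sequence motifs known from interferon and NF-kB responses. Printed here are those of HLA-B and HLA-C. With them are the 3 members called lower in H1299 against HBE that hold a match to the response element. PSMB9 was also called lower there but holds no match in its window. TAP1 and TAP2 hold matches but were not called in that comparison. Each printed promoter runs from 250 bases before to 50 bases after the RefSeq start site (GRCh38.p14), 5' to 3' on the gene's strand. The windows are chr6:31357130-31357429 (minus) for HLA-B, chr6:31272043-31272342 (minus) for HLA-C, chr15:44711267-44711566 (plus) for B2M, chr6:33314029-33314328 (minus) for TAPBP and chr6:32843998-32844297 (minus) for 1 of the 2 windows of PSMB8. Capitals mark matches on either strand to strict forms of the core of the interferon-stimulated response element (GAAANNGAAA) and the NF-kB site (GGGNNNNCCC). They also mark the core of the X2 box of the class I enhanceosome (TGACG) and the CCAAT box (CCAAT).
HLA-B promoter: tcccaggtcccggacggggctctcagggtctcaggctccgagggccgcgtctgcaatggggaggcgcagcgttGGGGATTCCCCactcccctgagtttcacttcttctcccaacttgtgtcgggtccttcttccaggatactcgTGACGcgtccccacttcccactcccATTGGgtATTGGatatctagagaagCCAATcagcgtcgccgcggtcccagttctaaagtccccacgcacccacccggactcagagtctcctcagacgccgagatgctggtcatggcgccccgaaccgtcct
HLA-C promoter: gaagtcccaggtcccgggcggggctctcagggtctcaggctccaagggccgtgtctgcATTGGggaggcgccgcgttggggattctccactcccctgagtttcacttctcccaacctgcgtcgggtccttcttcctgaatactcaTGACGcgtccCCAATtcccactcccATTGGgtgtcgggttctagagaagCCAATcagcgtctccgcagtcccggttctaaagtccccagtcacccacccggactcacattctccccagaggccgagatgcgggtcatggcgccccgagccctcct
B2M promoter: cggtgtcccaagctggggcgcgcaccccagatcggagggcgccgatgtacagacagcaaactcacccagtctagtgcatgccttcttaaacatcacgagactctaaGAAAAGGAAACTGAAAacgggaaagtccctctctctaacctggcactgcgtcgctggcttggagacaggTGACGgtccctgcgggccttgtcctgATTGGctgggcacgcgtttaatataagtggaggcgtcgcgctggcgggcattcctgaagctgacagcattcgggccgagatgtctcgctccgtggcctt
TAPBP promoter: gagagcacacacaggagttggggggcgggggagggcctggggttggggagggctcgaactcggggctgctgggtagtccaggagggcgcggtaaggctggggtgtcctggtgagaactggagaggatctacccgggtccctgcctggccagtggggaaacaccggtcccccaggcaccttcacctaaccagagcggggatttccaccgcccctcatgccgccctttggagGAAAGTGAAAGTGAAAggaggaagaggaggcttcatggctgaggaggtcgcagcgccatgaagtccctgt
PSMB8 promoter: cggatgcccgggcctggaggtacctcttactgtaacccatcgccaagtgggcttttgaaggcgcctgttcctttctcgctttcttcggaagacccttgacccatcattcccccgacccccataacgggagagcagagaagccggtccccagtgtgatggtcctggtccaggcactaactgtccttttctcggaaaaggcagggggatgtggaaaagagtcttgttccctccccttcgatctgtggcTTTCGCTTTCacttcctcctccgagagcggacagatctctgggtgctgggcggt
Promoters were found for 8 of the 9 members, in 10 windows, and HLA-E was not searched. The response element core was present in 5 of these 8 members (B2M, TAP1, TAP2, TAPBP and PSMB8), against 3.57% of all 35116 promoters of the same length. Looser forms of this core were not searched. The HLA-B and HLA-C windows both hold TTTCACTTCT, which its strict letters leave out. B2M held a pair of overlapping matches, which begin 144 and 138 bases before its start, and TAPBP a pair that begins 20 and 14 bases before its start. TAP1 and PSMB9 start 488 bases apart, and the overlapping matches in the TAP1 promoter lie 354 and 360 bases from the start of PSMB9, outside the PSMB9 window. Among the 8 members searched, the strict NF-kB letters were present in HLA-B alone, against 17.8% of all promoters. They form overlapping matches 177 and 176 bases before the start. Looser forms of the NF-kB site were not searched. The TAPBP window holds GGGGATTTCC, a TAP1 window GGGACTTTCC and the B2M window GGGAAAGTCCC, which the strict NF-kB letters leave out. The nearest run in the HLA-C window, GGGGATTCTC, differs by 1 base from the HLA-B run GGGGATTCCC. TGACG was present in 6 members, in 6 of the 10 windows (24.6% of all promoters). CCAAT was present in 5 members, in 5 windows (34.6%). These matches are descriptions of the reference letters and no binding was measured.

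Library totals were 35751992 reads in H1299, 38268527 in A549 and 43580281 in HBE, of which 79.7%, 81.8% and 79.2% fell on protein-coding (NM) transcripts of RefSeq. Reads were summed per gene and scaled to RPM, reads per 1000000 coding reads of the library. The 9 members held 8802 reads in H1299, 8205 in A549 and 19391 in HBE, or 309, 262 and 562 RPM. Every member was read at least 144 times in every library, so all 9 passed the minimum of 20 reads over a pair. The lines differed in their epithelial markers, of which 2 of 7 in H1299, 4 of 7 in A549 and 7 of 7 in HBE reached the 95th percentile of the olfactory receptors described further on.

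**Figure D2:**
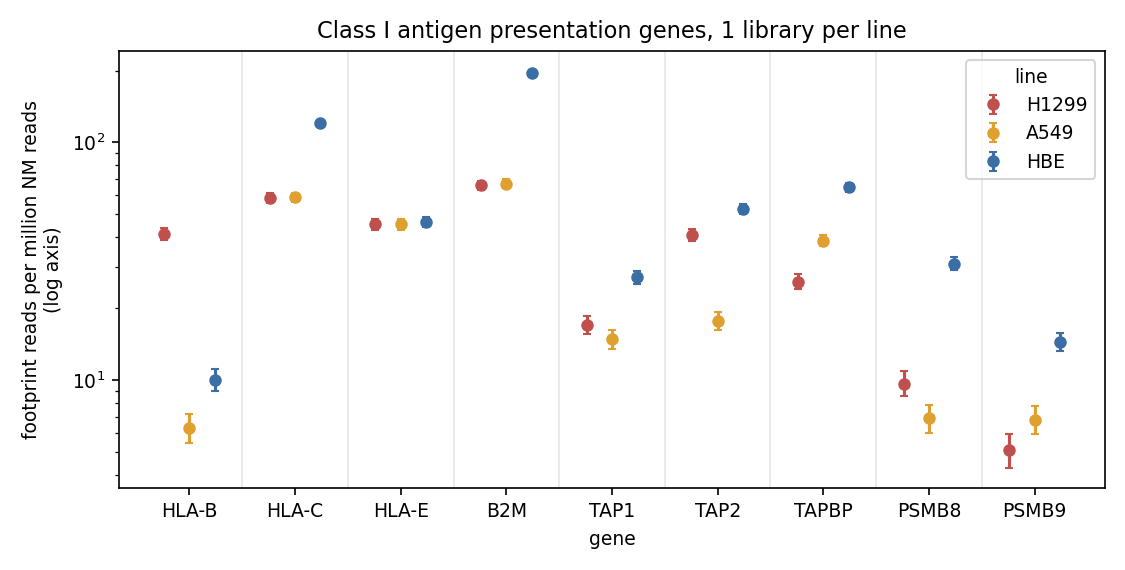
RPM, footprint reads per 1000000 coding (NM) reads (y axis, log scale) of each member (x axis) in H1299, A549 and HBE, 1 library each, with exact 95% Poisson intervals as bars. HLA-B is highest in H1299 at 41.2 RPM, HLA-E lies between 45.2 and 46.2 in all 3 lines, and the other 7 members are highest in HBE.

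A member was called higher or lower where the 95% interval of its ratio lay wholly above 2 or wholly below 1/2. Between the cancer lines, H1299 against A549, HLA-B and TAP2 were called higher and no member was called lower. By the same rule 4.10% of 18712 coding genes were called higher and 4.83% lower. In H1299 against HBE, HLA-B was called higher, against 8.05% of 18648 genes, and B2M, TAPBP, PSMB8 and PSMB9 were called lower, against 4.93%. In A549 against HBE no member was called higher, against 6.15% of 18699 genes, and B2M, TAP2 and PSMB8 were called lower, against 3.36%. The comparisons share libraries and are not independent of each other. In such bulk libraries, fewer cells that express a gene and fewer footprints of it per cell cannot be told apart.

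The members as a set stood below the typical gene in both cancer lines against HBE and level with it between the cancer lines. The median log2 ratio of the 9 members was -1.05 in H1299 against HBE, where the median over all genes was 0.38, and 8 of the 9 lay below that gene. In A549 against HBE the medians were -1.04 and 0.35, with 9 of 9 below. In H1299 against A549 they were 0.00097 and 0.02. Scaling by TMM factors moved the median of all genes to 0.01 in both comparisons with HBE. It also turned the balance of calls over all genes, to 4.19% higher and 7.94% lower in H1299 against HBE and to 3.39% higher and 5.68% lower in A549 against HBE. Under TMM 6 members were called lower in A549 against HBE, beside that share of 5.68%.

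**Figure D3:**
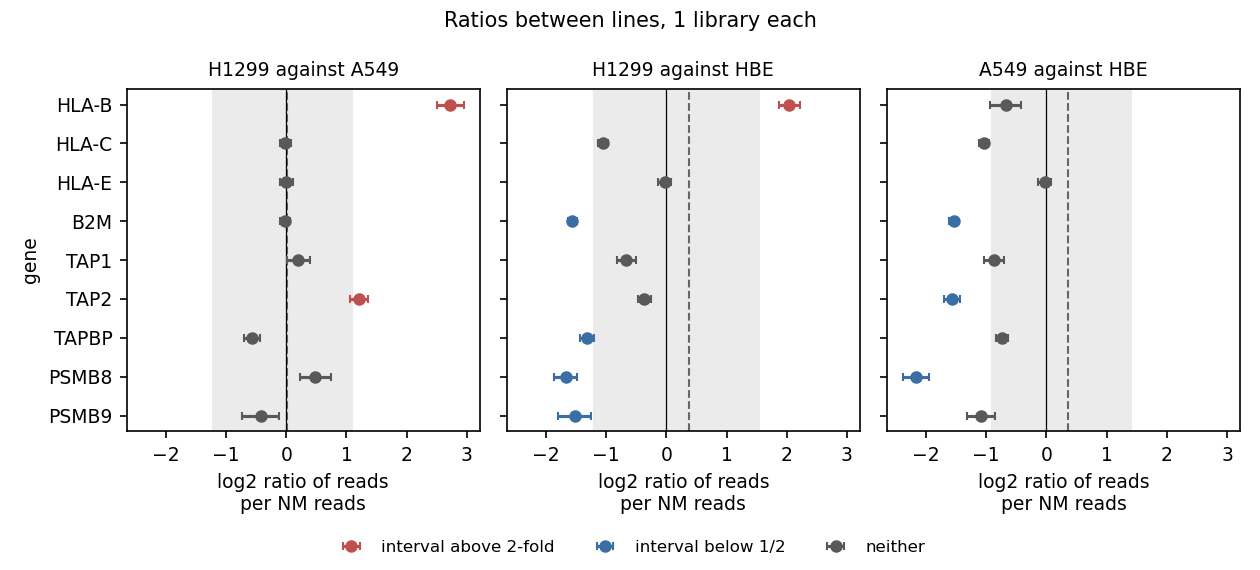
Log2 ratio of reads per coding reads (x axis) of each member (rows) in H1299 against A549, H1299 against HBE and A549 against HBE, with exact 95% counting intervals. Grey bands span the 5th to 95th percentile of all coding genes and dashed lines mark their median, which is 0.38 and 0.35 in the comparisons with HBE. HLA-B lies beyond the band on the high side in both panels that involve H1299, at 2.72 and 2.04.

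HLA-B, which encodes a highly variable classical heavy chain that presents peptides to CD8 T cells, was the member that stood apart in H1299. It had 1174 reads in H1299, 196 in A549 and 345 in HBE, which are 41.2 (38.9 to 43.7), 6.26 (5.42 to 7.20) and 9.998 (8.97 to 11.1) RPM. The H1299 library was high and the intervals of the 3 libraries did not overlap. The ratio was 6.58 (5.66 to 7.70) in H1299 against A549, higher than that of 99.5% of genes. It was 4.12 (3.65 to 4.66) in H1299 against HBE, higher than that of 97.8% of genes. The ratio of A549 against HBE was 0.626 (0.523 to 0.748), which was not called.

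HLA-C, the other classical heavy chain of the set and also a ligand of killer cell receptors, followed a different order. It had 1656 reads in H1299, 1839 in A549 and 4168 in HBE, or 58.1, 58.7 and 121 RPM. The cancer lines lay within counting error of each other, with a ratio of 0.990 (0.926 to 1.06), and HBE was above both. The ratios against HBE were 0.481 (0.454 to 0.510) for H1299 and 0.486 (0.460 to 0.514) for A549, whose intervals reach just past 1/2, so that neither was called. With TMM factors both were called lower, with log2 ratios of -1.42 and -1.38. HLA-C had 1.41 times the reads of HLA-B in H1299, 9.38 times in A549 and 12.1 times in HBE. Of 2 HLA-C transcripts, the same one took 98.5%, 99.6% and 99.5% of the reads of the gene in H1299, A549 and HBE.

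HLA-E, a heavy chain with little variation that presents leader peptides of other class I chains to NKG2A on natural killer cells, had nearly the same level in every library. It had 1289 reads in H1299, 1416 in A549 and 1594 in HBE, or 45.3, 45.2 and 46.2 RPM. Its ratio was 1.00 (0.927 to 1.08) in H1299 against A549 and 0.980 (0.910 to 1.06) in H1299 against HBE. The ratio of A549 against HBE was 0.979 (0.911 to 1.05). Each of these intervals includes 1. That level course depends on the scaling: with TMM factors the log2 ratio of HLA-E was -0.39 in H1299 against HBE and -0.37 in A549 against HBE.

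Because the heavy chain genes share sequence, the calls for HLA-B were set beside pooled counts, an alternative chosen after the data had been seen. With HLA-B and HLA-C pooled, H1299 against A549 gave 1.53 (1.44 to 1.62) and H1299 against HBE gave 0.760 (0.725 to 0.797), so the pool was lower in H1299 than in HBE although HLA-B by itself was higher. A549 against HBE gave 0.497 (0.471 to 0.524). Over all 9 HLA class I gene symbols in the tables, pseudogenes included, the pool had 7222 reads in H1299, 5948 in A549 and 10543 in HBE. The ratios of that pool were 1.33 (1.29 to 1.38) in H1299 against A549, 0.830 (0.805 to 0.855) in H1299 against HBE and 0.622 (0.602 to 0.642) in A549 against HBE. None of the pooled ratios was called. The part that the assignment of shared reads has in the HLA-B values was not tested.

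B2M, the invariant light chain without which class I heavy chains do not reach the cell surface, had 1880 reads in H1299, 2098 in A549 and 6748 in HBE. These are 66.0 (63.1 to 69.1), 67.0 (64.2 to 69.9) and 196 (191 to 200.3) RPM. H1299 and A549 overlapped, with a ratio of 0.985 (0.925 to 1.05), and HBE was far above both. B2M was 0.338 (0.321 to 0.355) of the HBE level in H1299 and 0.343 (0.326 to 0.360) of it in A549. It made up 21.4% of the members' reads in H1299, 25.6% in A549 and 34.8% in HBE. Per transcript length, B2M stood at 0.839 times the summed level of HLA-B, HLA-C and HLA-E in H1299, 1.17 times in A549 and 1.99 times in HBE.

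The transporter is built from TAP1 and TAP2 and carries peptides into the endoplasmic reticulum. TAP1 had 485 reads in H1299, 464 in A549 and 933 in HBE, or 17.0, 14.8 and 27.0 RPM. TAP2 had 1160, 554 and 1809 reads in the same order, or 40.7, 17.7 and 52.4 RPM. The subunits did not move in step: TAP2 was called higher in H1299 against A549, at 2.30 (2.08 to 2.55), where TAP1 was at 1.15 (1.01 to 1.31). TAP2 was called lower in A549 against HBE, at 0.338 (0.306 to 0.371), where TAP1 was at 0.548 (0.489 to 0.613). In H1299 against HBE neither was called, with TAP1 at 0.630 (0.563 to 0.704) and TAP2 at 0.777 (0.721 to 0.837). Whether the ratios of TAP1 and TAP2 differ from each other beyond the spread of repeated libraries was not tested.

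Tapasin, from TAPBP, bridges TAP to the empty class I molecule and edits its peptides. It had 739 reads in H1299, 1209 in A549 and 2229 in HBE, or 25.9, 38.6 and 64.6 RPM. The 3 libraries were in that order with intervals that did not overlap. TAPBP was called lower in H1299 against HBE, at 0.402 (0.369 to 0.437), and was not called in A549 against HBE, at 0.598 (0.557 to 0.641). H1299 against A549 gave 0.672 (0.612 to 0.737), with the opposite direction from that of TAP2.

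PSMB8 and PSMB9 encode the inducible catalytic subunits LMP7 and LMP2, which change the cuts that the proteasome makes. PSMB8 had 275 reads in H1299, 216 in A549 and 1066 in HBE, or 9.66, 6.90 and 30.9 RPM. It was called lower against HBE in both cancer lines, at 0.313 (0.273 to 0.357) in H1299 and 0.223 (0.192 to 0.259) in A549. In A549 against HBE only 1.27% of genes had a lower ratio than PSMB8. PSMB9 had 144, 213 and 499 reads in H1299, A549 and HBE, or 5.06, 6.80 and 14.5 RPM. It was called lower in H1299 against HBE, at 0.3496 (0.288 to 0.422), while A549 against HBE gave 0.470 (0.399 to 0.553). Between the cancer lines PSMB8 stood at 1.40 (1.17 to 1.68) and PSMB9 at 0.743 (0.597 to 0.922), in opposite directions and neither called.

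The inducible subunits were set against the constitutive ones that they replace, within each library, as a ratio of reads per kilobase. PSMB8 over PSMB5 was 0.126 (0.110 to 0.143) in H1299, 0.0646 (0.0560 to 0.0742) in A549 and 0.338 (0.314 to 0.363) in HBE. PSMB9 over PSMB6 was 0.0613 (0.0514 to 0.0726) in H1299, 0.0693 (0.0600 to 0.0797) in A549 and 0.238 (0.215 to 0.263) in HBE. PSMB10, the remaining inducible subunit, over PSMB7 was 0.0254 (0.0220 to 0.0293) in H1299, 0.0609 (0.0527 to 0.0700) in A549 and 0.141 (0.130 to 0.152) in HBE. In each pair HBE had the largest ratio of inducible over constitutive reads, with intervals clear of both cancer lines. The constitutive subunit had more reads per kilobase of transcript in every library. Each ratio also moves with its constitutive gene, and subunit protein was not measured.

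**Figure D4:**
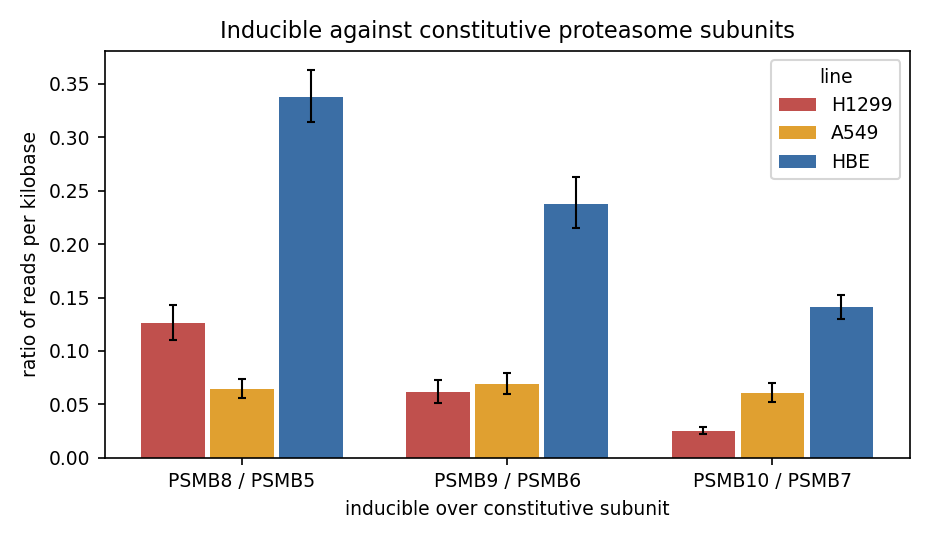
Ratio of reads per kilobase of the inducible over the constitutive proteasome subunit (y axis) for 3 pairs (x axis) in H1299, A549 and HBE, 1 library each, with exact 95% counting intervals. HBE is highest in each pair, at 0.338, 0.238 and 0.141.

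Levels between members were compared as RPM per kilobase of the most read transcript, untranslated regions included. The coding part differs between members: the GENCODE models hold 686 codons in 5643 bases for TAP2 and 748 in 2685 for TAP1. An order by coding length was not run and could differ, so the order given here holds for whole transcripts only. B2M ranked first and HLA-C next in all 3 lines, with B2M at 66.9 in H1299, 67.9 in A549 and 198 in HBE and HLA-C at 36.7, 37.04 and 76.2. HLA-B ranked next in H1299, at 26.1, but was near the bottom in A549, at 3.97, and at the bottom in HBE, at 6.34. In H1299 the remaining order was HLA-E, TAPBP, TAP2, PSMB8, TAP1 and PSMB9. Of these, TAP2 at 7.11 (6.70 to 7.53) and PSMB8 at 6.03 (5.34 to 6.78) overlapped, as did PSMB8 and TAP1 at 5.73 (5.23 to 6.26) and TAP1 and PSMB9 at 4.82 (4.07 to 5.68). In A549 TAPBP at 19.3 and HLA-E at 16.9 stood above PSMB9 at 6.49 (5.65 to 7.43). There TAP1 at 4.98 (4.54 to 5.46), PSMB8 at 4.31 (3.75 to 4.92) and HLA-B at 3.97 (3.43 to 4.56) overlapped as neighbours, and TAP2 was last at 3.09 (2.84 to 3.36). In HBE the order after HLA-C was TAPBP at 32.3, PSMB8 at 19.3, HLA-E at 17.2, PSMB9 at 13.8, TAP2 at 9.15, TAP1 at 9.09 and HLA-B. In HBE the intervals of PSMB8 (18.14 to 20.5) and HLA-E (16.4 to 18.11) just missed each other, and those of TAP2 and TAP1 overlapped.

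Per length of the whole transcript, some members were no higher than the upper end of the olfactory receptors. These genes serve smell in the nose and are taken here as a low-level comparison. Their 379 transcripts had a 95th percentile of 4.89 RPKM in H1299, 4.97 in A549 and 3.34 in HBE on the deposited scale. In H1299 the most read transcripts of TAP1 (4.29 RPKM), PSMB8 (4.14) and PSMB9 (3.84) lay below it. In A549 those of HLA-B (3.25), TAP1 (3.805), TAP2 (2.48) and PSMB8 (3.001) did, and in HBE no member did. The deposited scale divides by the whole transcript, untranslated regions included, which weighs against members with a small coding part. TAP2, for one, has 686 codons in 5643 bases of its GENCODE model. Placement by coding length was not run, so a place below this level holds on the deposited scale only. The same limit holds for the marker genes set beside it. For the members below that level, how many of the reads come from translating ribosomes was not tested.

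**Figure D5:**
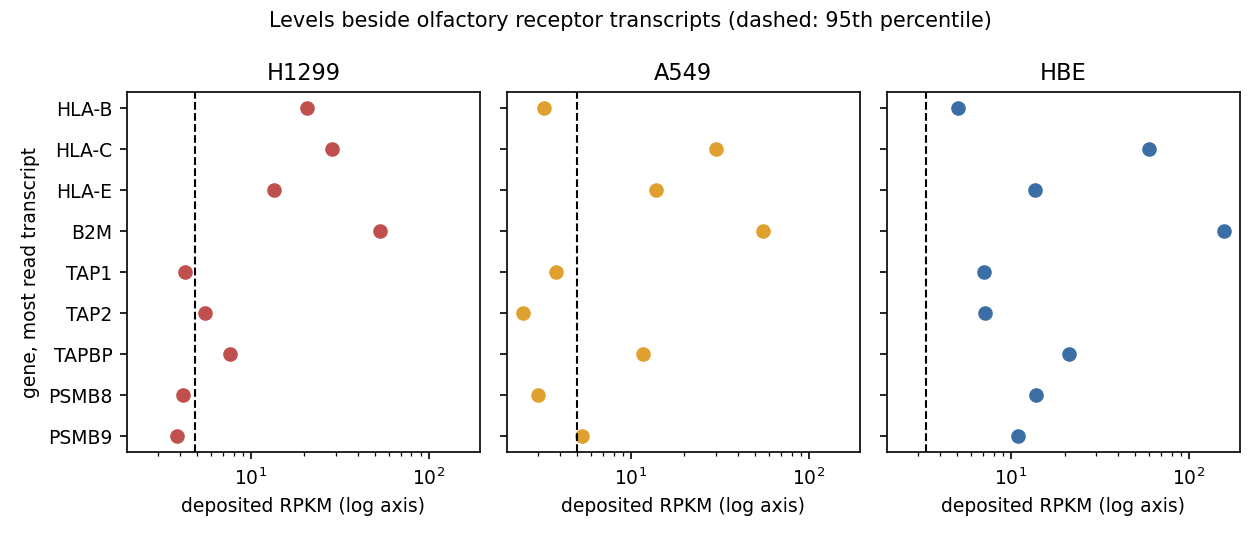
Deposited RPKM (x axis, log scale) of the most read transcript of each member (rows) in H1299, A549 and HBE, 1 library each, with the 95th percentile of 379 olfactory receptor transcripts as a dashed line at 4.89, 4.97 and 3.34 RPKM. Below the line are 3 members in H1299, 4 in A549 and 0 in HBE.

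Genes of the same pathway outside the set were counted over 4 lists with 35 genes, of which 32 could be tested. In H1299 against A549, 3 were called higher and 3 lower. In H1299 against HBE 2 were called higher and 8 lower, with a list median of -0.25 against 0.38 for all genes. For A549 against HBE 0 were called higher and 8 lower, with a list median of -0.28 against 0.35. The shares of all genes called by the same rule are those given above for each comparison.

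Among the other class I and class I-like genes, 9 of 12 could be tested. MICB, a stress ligand of the NKG2D receptor, had 1239 reads in H1299, 419 in A549 and 299 in HBE, and was called higher in H1299 against A549 (3.25) and against HBE (5.02). Its neighbour MICA, with the same function, had 1031, 575 and 487 reads and was called higher in H1299 against HBE alone (2.57). HLA-F, a nonclassical heavy chain that shares sequence with the members, had 523, 175 and 437 reads and was called higher in H1299 against A549 (3.29). MR1, which presents vitamin metabolites to MAIT cells, had 166 reads in H1299, 278 in A549 and 1359 in HBE and was called lower than HBE in both (0.148 and 0.225). HFE, a class I-like regulator of iron uptake, was called lower in H1299 against A549 (0.422), with 207 reads in H1299 and 539 in A549.

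Among 7 genes of peptide loading and trimming, none was called between the cancer lines and the same 2 were called lower in each cancer line against HBE. TAPBPL, a second peptide editor related to tapasin, had 58 reads in H1299, 68 in A549 and 350 in HBE (0.201 and 0.214 against HBE). ERAP2, which trims peptides in the endoplasmic reticulum, had 373, 413 and 2062 reads (0.219 and 0.221). The other 5 genes of this list were not called in any comparison.

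Among 7 proteasome partners, PSME1 and PSME2 encode the interferon-inducible activator PA28. PSME1 had 663 reads in H1299, 1712 in A549 and 4556 in HBE. It was called lower in all comparisons, at 0.426 in H1299 against A549, 0.176 in H1299 against HBE and 0.414 in A549 against HBE. PSME2 had 802 reads in H1299, 1146 in A549 and 2190 in HBE and was called lower in H1299 against HBE (0.444). PSMB10 had 199, 208 and 727 reads and was called lower than HBE in both cancer lines (0.332 and 0.315). The constitutive PSMB7 had 8008 reads in H1299, 3497 in A549 and 5278 in HBE and was called higher in H1299 against A549 (2.52).

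Among 9 regulators, IRF1, a transcription factor that acts on these promoters after interferon-gamma, had 218 reads in H1299, 294 in A549 and 1480 in HBE and was called lower than HBE in both (0.178 and 0.219). RFXAP, a subunit of the RFX complex that binds class I and class II promoters, had 423, 1140 and 3925 reads. It was called lower in H1299 against A549 (0.408), H1299 against HBE (0.131) and A549 against HBE (0.320). The other RFX subunits on the list, RFX5 and RFXANK, were not called in any comparison. In the same order of comparisons RFX5 stood at 1.00, 0.997 and 0.994 and RFXANK at 1.36, 1.31 and 0.967. NFKB1, a subunit of NF-kB, was called lower in A549 against HBE (0.376), with 577 reads in A549 and 1691 in HBE. NLRC5, the transactivator of class I genes, had 310, 436 and 448 reads in H1299, A549 and HBE and was not called. IRF2, RELA and CREB1 were not called in any comparison either.

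Markers of other antigen-presenting cells and of leukocytes were mostly low on the deposited scale. Of 10 genes of class II presentation, all 10 lay below the olfactory receptor level in H1299 and in A549, and 9 did in HBE. Their reads ranged over 18 to 272 in H1299, 31 to 260 in A549 and 14 to 1723 in HBE, and the sums were 950, 1229 and 2566. The exception in HBE was CD74, the invariant chain of class II, with 60 reads in H1299, 40 in A549 and 1723 in HBE. Of 8 leukocyte genes, 7 lay below the olfactory receptor level in each line, with sums of 1890, 1974 and 1892 reads, and no marker of either list was at 0.

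The coding genes whose profile over the 3 lines was nearest to the members' median profile were found among 9981 genes with at least 1000 reads in all. They were TLR3, SLC6A8, SLC16A3, BCAR3 and ABCG1, at Euclidean distances of 0.03, 0.03, 0.04, 0.04 and 0.08 on the log2 scale. TLR3, a sensor of double-stranded RNA, had 222 reads in H1299, 249 in A549 and 552 in HBE. Nearest to HLA-B were SESN2, CRB1, MOK, RASA1 and NDC80, at distances of 0.21, 0.24, 0.26, 0.27 and 0.32, so HLA-B had no neighbour as close. SESN2, a stress-induced regulator of mTORC1, had 814, 161 and 287 reads in the same order. With only 3 libraries such likeness is a description of these profiles.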

How the data were processed

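Footprints of H1299, A549 and HBE cells, 1 library each, were freed of rRNA by magnetic depletion and sequenced after small RNA library preparation. The authors removed adapters, trimmed reads by quality and aligned them to RefSeq transcripts using FANSe2 (version not given in the sources used here). The build is hg19 per the submitters' processing notes. For reads that match several class I genes, no rule of assignment is stated beyond the aligner's settings. The authors deposited, per transcript, a read count that is not normalized and an RPKM made from it with the transcript length and all reads of the library.

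The 9 members and all gene lists were chosen with earlier results of these data known. Of the list of regulators, 1 gene is not reported here and was left out of its counts. Counts were summed per gene symbol, 280 transcripts without a symbol being named through RefSeq and 49 staying unnamed, and divided by the reads on NM transcripts. Ratios have exact conditional 95% intervals (Clopper-Pearson), levels exact Poisson intervals, and log2 ratios an added count of 0.5. A call needed at least 20 reads over both libraries and an interval wholly beyond 2. Footprint reads without molecular identifiers are not independent molecules, so intervals cover counting error only. The ratio calculation was tested on simulated data. The text names every member, pathway list genes called in any comparison, and the 5 genes of at least 1000 reads nearest in profile. NLRC5 and the other uncalled regulators, CD74 and the constitutive subunits were named outside this rule after their values were seen.

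Promoters are from RefSeq (GRCh38.p14) and gene models from GENCODE version 44 lifted to GRCh37. Alternatives were the scaling (all reads, TMM or upper quartile factors, deposited RPKM, leaving out the 10 NM transcripts with most reads), the transcripts summed, the added count, the minimum and the call rule. Used were R 4.3.3, edgeR 4.0.16 (for scaling factors only), Python 3.11.15, numpy 2.4.6, pandas 2.3.3, SciPy 1.17.1 and matplotlib 3.10.9.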

Additional observations from a re-analysis of the deposited data

Results flagged for a closer look

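HLA class I rows without a protein-coding transcript entered no comparison of single genes, only the pool of all class I symbols, but carried reads. HLA-H had 1014 reads in H1299, 801 in A549 and 2323 in HBE. HLA-J had 76 reads in H1299, 53 in A549 and 61 in HBE. HLA-L had 147 reads in H1299, 136 in A549 and 125 in HBE. All are above the 3 reads that a count of 0 allows, and no control library was available to set them against. Scaled to coding reads, HLA-H stood at 1.39 in H1299 against A549, 0.529 in H1299 against HBE and 0.380 in A549 against HBE. Of the 28-base coding windows of HLA-C, 12.9% stand unchanged in HLA-H, and the part of shared reads in these counts was not tested.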

How the results depend on the processing

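No paired analysis was possible because the result comes from single libraries, without replicates to pair. Of 162 log2 ratios of single members under the 6 settings that could move them (4 scalings, the most read transcript alone and 5 added reads), 119 moved by less than their counting interval and 43 by more, and 0 of the called ones turned. The minimums and call rules leave these ratios as they are, and so did summing NM transcripts alone. In H1299 against HBE the members' median log2 ratio was -1.42 with TMM, -1.22 with upper quartile factors and -1.23 without the 10 most read NM transcripts. In A549 against HBE it was -1.38, -1.24 and -1.19 under the same scalings. Members called lower in A549 against HBE numbered 6 with TMM (5.68% of all genes), 5 with upper quartile factors (4.45%), 5 without the 10 most read transcripts (4.12%), 5 with a ratio of 2 and no interval (4.40%), and 7 with an interval beyond 1.5 (6.60%), against 3 (3.36%) as reported. Pathway genes called there in either direction numbered 13 with an interval beyond 1.5, where 15.6% of all genes were called higher and 6.60% lower. Reversals came from pooling, chosen after seeing the data: the log2 ratio of HLA-B in H1299 against HBE was -0.40 with HLA-C pooled and -0.27 with all class I rows pooled. The deposited RPKM was 0.591 to 0.818 of the level per length in all 27 values, since it divides by all reads and takes 1 transcript. Protein length in place of transcript length was not run. Depth limits the members little, the lowest count being 144 reads, but 1 library per line leaves the spread between cultures unmeasured.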
